A study of Homo sapiens with 8 samples.

Results

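The zinc finger genes of the first 15 Mb of chromosome 19 were examined for the repressive histone mark H3K9me3 (trimethylated lysine 9 of histone H3) and the promoter mark H3K4me3 (trimethylated lysine 4). Members were all protein-coding genes of GENCODE release 44 with a symbol beginning with ZNF and a transcription start site (TSS) in that stretch of hg38, and there were 48 of them among 19970 protein-coding genes. Position and name alone set membership, with no measured value in the rule. The gene set itself was chosen with earlier results of these data known. The comparison genes were the 411 other protein-coding genes of the same stretch, 201 ZNF genes farther along chromosome 19 and 267 ZNF genes of other chromosomes.

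The data were native ChIP-seq, in which chromatin that has not been cross-linked is pulled down with an antibody, from SUM159, a cultured triple-negative breast cancer cell line of mesenchymal character. All cells, controls included, carried the lentiviral pLV-KRAB construct, which makes dCas9-KRAB, a Cas9 protein without nuclease activity joined to a KRAB repressor domain. All gRNA cells also received 4 guides against the promoter of ZEB1, a transcription factor of the mesenchymal state, and No gRNA cells received the vector without a targeting guide. Each mark had 2 libraries per group, 8 in all, so every p-value below rests only on these libraries of 1 cell line. As a check of the cell type with all deposited peaks, H3K4me3 covered at least 50% of the TSS ± 1 kb in all 4 libraries at 6 of 6 mesenchymal genes (VIM, CD44, EGFR, FN1, AXL and CAV1), 2 of 2 housekeeping genes and 2 of 6 luminal genes, although 5 of the 6 luminal genes reached it in at least 1 library. At q ≤ 0.05 it did so in all 4 libraries at 1 of 6 mesenchymal, 1 of 2 housekeeping and 0 of 6 luminal genes.

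Zinc finger proteins of this kind hold a row of C2H2 fingers, each a short loop in which a pair of cysteines and a pair of histidines grip a zinc ion and which reads a few bases of DNA. Most also carry a KRAB domain near their start, which binds the scaffold protein TRIM28 (KAP1). TRIM28 brings in the H3K9 methyltransferase SETDB1 and the reader protein HP1. The genes arose by repeated tandem duplication, lie in clusters on chromosome 19, and are themselves known for H3K9me3 over the 3′ exon that encodes the fingers. KRAB is thus both the repressor domain of most members and the domain of the introduced construct.

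The members lay in 5 runs, with gaps of more than 500 kb between start sites setting runs apart. The first run held 5 genes from ZNF554 to ZNF77 (2.82 to 2.945 Mb), the second ZNF557 and ZNF358, the third 14 genes from ZNF414 to ZNF846 (8.51 to 9.793 Mb), and the fourth 26 genes from ZNF653 to ZNF490 (11.48 to 12.64 Mb). ZNF333 (TSS at 14.69 Mb) stood alone, and the first ZNF gene beyond the limit was ZNF101 at 19.67 Mb. The plus strand held 22 members and the minus strand 26, with a median gene length of 21 kb. A KRAB motif was found in the protein of 43 members and not in ZNF358, ZNF414, ZNF121, ZNF653 and ZNF491. The number of fingers ranged from 0 to 19 with a median of 11, and in 45 members the longest coding exon was also the last. Both counts were read from hg38 through the annotated coding exons. The members included 2 read-through genes, ZNF559-ZNF177 and ZNF625-ZNF20, which share exons with their neighbours, and 12 of the TSS ± 10 kb windows overlapped that of another member, so members are not independent of each other.

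The exon that encodes the fingers carried the mark most regularly, and its repeated sequence is shown first. A repeat of 78 bases, a finger with the linker to the next one, was present in 45 of the 48 members. It is printed below from hg38 on the coding strand for 4 genes whose finger exon was covered by H3K9me3 in every library and for ZNF358, whose finger exon was not. Capitals mark the codons of the zinc-gripping cysteines and histidines. All 5 lie inside the longest coding exon, at chr19:12350877-12350954 (ZNF442, minus strand), chr19:12016192-12016269 (ZNF433, minus), chr19:12075715-12075792 (ZNF844, plus), chr19:9566600-9566677 (ZNF121, minus) and chr19:7520035-7520112 (ZNF358, plus).
ZNF442: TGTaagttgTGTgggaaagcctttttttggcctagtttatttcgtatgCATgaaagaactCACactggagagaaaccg
ZNF433: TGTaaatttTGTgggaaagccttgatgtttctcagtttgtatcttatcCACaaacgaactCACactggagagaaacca
ZNF844: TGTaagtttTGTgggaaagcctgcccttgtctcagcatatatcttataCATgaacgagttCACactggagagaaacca
ZNF121: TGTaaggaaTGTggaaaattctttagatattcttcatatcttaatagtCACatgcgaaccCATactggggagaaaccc
ZNF358: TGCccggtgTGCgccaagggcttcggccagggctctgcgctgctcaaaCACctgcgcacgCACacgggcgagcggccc

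Identities were taken between the printed copies, 1 per gene, and other copies in these genes were not compared. Among the 3 genes of the fourth run, the printed repeats were 80.8% identical between ZNF433 and ZNF844 and 78.2% identical between ZNF442 and each of them. ZNF121, from the third run, matched ZNF433 and ZNF442 at 60.3% of bases and ZNF844 at 52.6%. ZNF358 matched ZNF121 at 51.3% and the 3 genes of the fourth run at 43.6% to 47.4%, and its repeat is rich in G and C. How many reads matched more than 1 such copy cannot be read from peak lists and was not tested.

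The peak lists differed in yield within groups. H3K9me3 peaks with q ≤ 0.05, the main setting, covered 198 and 188 Mb of the main chromosomes with guides (All gRNA) and 97.6 and 238 Mb without (No gRNA), where replicate 1 was the low one. H3K4me3 peaks covered 54.6 and 19.3 Mb where the label reads All gRNA, against 46.0 and 115 Mb where it reads No gRNA. The file names give 2 of these 4 H3K4me3 libraries the other condition, 1 in each group, and the labels were kept. Without a q filter, a setting called the full lists below, the H3K9me3 libraries were alike in covered length, from 723 to 770 Mb. The H3K4me3 full lists covered 623 and 830 Mb under the All gRNA label and 933 and 764 Mb under the No gRNA label. Full lists reached down to a −log10 p of 1.00 in every library. Cover of either mark in the full lists therefore includes weak peaks over a large part of the genome. Depth is unknown, since peak lists hold no read counts. Values below are covered shares, the percent of a window's bases that lie under peaks of 1 library, and 4 values in a row give All gRNA replicates 1 and 2, then No gRNA replicates 1 and 2.

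H3K9me3 covered most of the length of most members. In the full lists the median covered share of the gene body was 95.4%, 96.1%, 93.3% and 92.0%, whereas the median over all protein-coding genes lay between 2.53% and 6.21%. The gene body was covered to at least 50% in every library in 42 members and in 22 of the 411 neighbours. At q ≤ 0.05 the member medians were 94.7%, 95.7%, 1.71% and 88.6%, and the medians of all genes and of the neighbours were 0% in every library. The low value belongs to No gRNA replicate 1, in which 24 members had no peak at this threshold. Over the TSS ± 10 kb the member medians were 87.2%, 89.9%, 1.43% and 79.9% at q ≤ 0.05, and between 86.3% and 91.3% in the full lists.

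Coverage was most even over the longest coding exon, which in most members encodes the fingers. In the full lists this exon was covered to 100% in each of the 4 libraries in 45 of 48 members. The same exon was covered to at least 50% in every library in 6.57% of the neighbours, 80.6% of the ZNF genes farther along chromosome 19, 38.6% of the ZNF genes of other chromosomes and 7.45% of all protein-coding genes. These shares are descriptions of gene sets of unequal make-up, with no test between them. At q ≤ 0.05 the exon was covered to at least 50% in 41, 42, 19 and 43 members. In every library this held for 18 members, and it held for 40 when No gRNA replicate 1 was left out.

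The 3 exceptions were ZNF358, ZNF414 and ZNF653. Even in the full lists ZNF653 had 0% of its longest coding exon covered in every library. ZNF358 had 0% in 3 libraries and 42% in No gRNA replicate 2, and ZNF414 had 0% in the same 3 and 42.7% in that library. None of the 3 carries the KRAB motif, and they are 3 of the 5 members without it. ZNF121 and ZNF491, the other members without it, were covered to 100% in every library. The exceptions also differed in base composition, with 66.3% to 73.0% G and C in the longest coding exon against 38.9% to 55.5% (median 40.9%) in the 45 covered members. They held 3 to 9 fingers, whereas the covered members held 0 to 19, and in ZNF414 and ZNF653 the longest coding exon was not the last. This split was described after the values were seen, and whether base composition affects the recovery of chromatin or reads here was not tested.

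**Figure D1:**
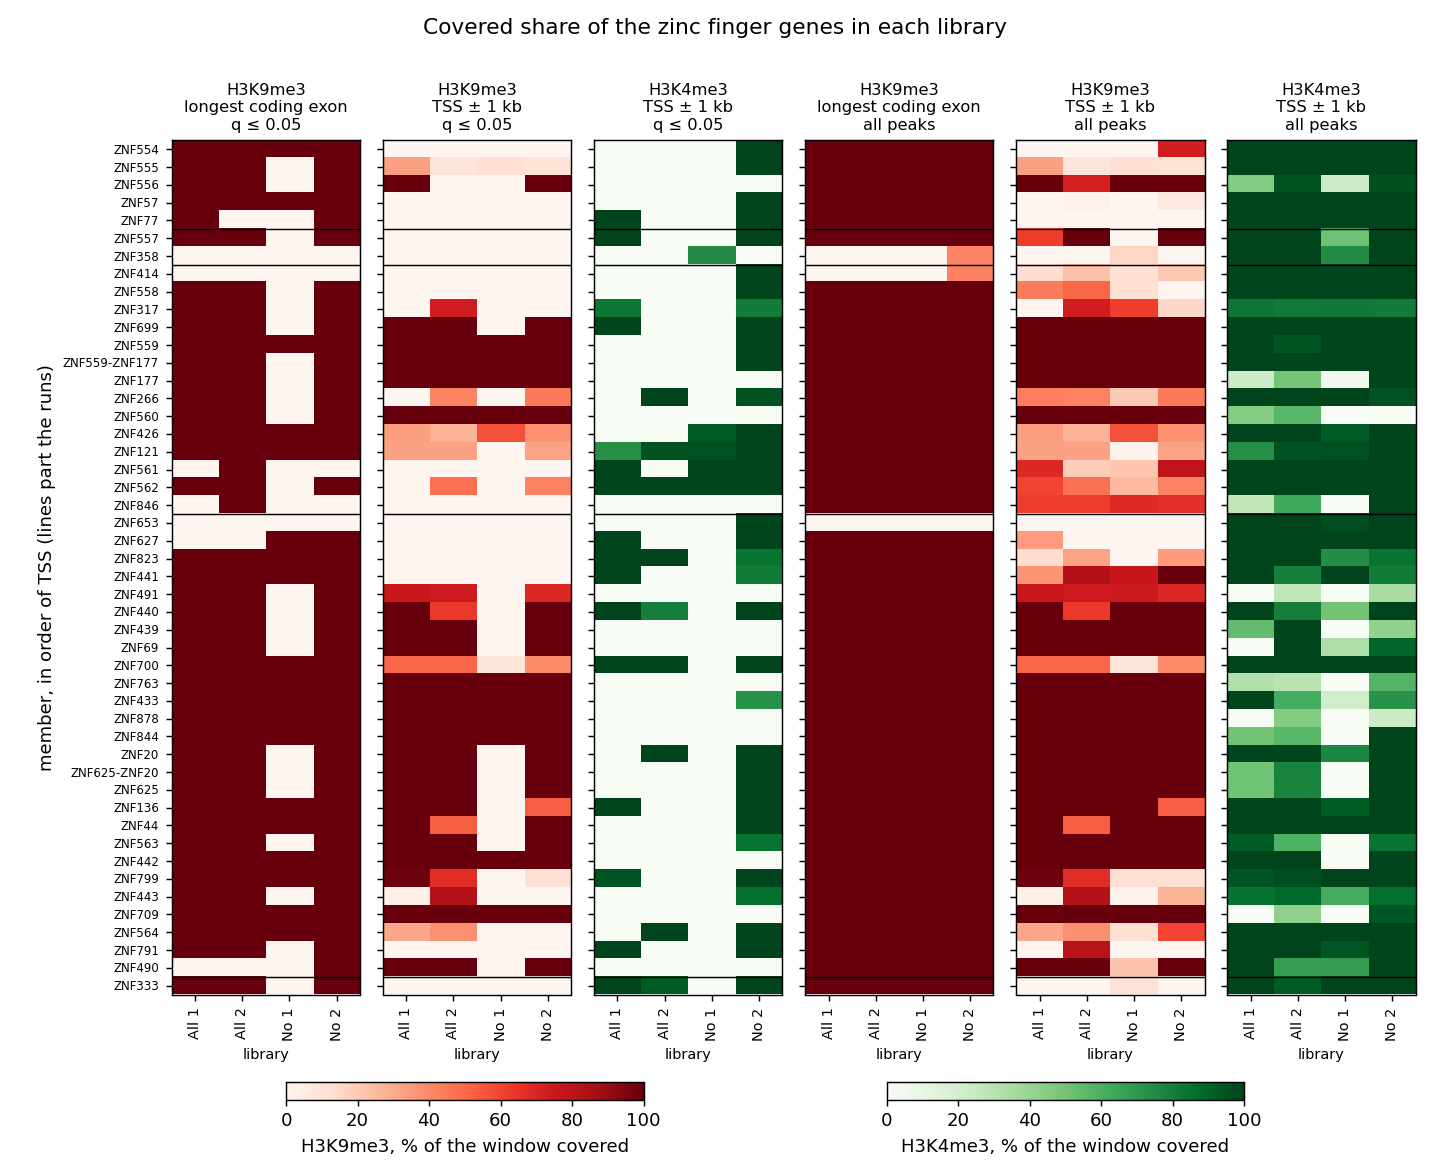
Covered share of each member (y axis, in order of TSS, with lines between runs) in each library (x axis, All gRNA replicates 1 and 2, then No gRNA replicates 1 and 2) for 3 windows, at q ≤ 0.05 (left 3 panels) and with all deposited peaks (right 3 panels). The fourth panel is filled for 45 of 48 members in every library, the promoter panels are mixed, and the pale column of No gRNA replicate 1 at q ≤ 0.05 fills in when all deposited peaks are used.

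Peaks over the finger exons were long and shallow. A peak lay on the longest coding exon in 45, 45, 45 and 47 members, with median widths of 52.2, 52.7, 33.3 and 30.4 kb. The authors' fold enrichment of these peaks had medians of 2.18, 2.09, 2.08 and 2.05 and never exceeded 2.41. For each exon the peak with the lowest q was taken, so these folds describe called peaks only, not the enrichment of a library. Their medians were alike in the 4 libraries. The median q was 0.0588 in No gRNA replicate 1 against 0.0106 to 0.0151 in the other libraries, so the median peak of that library fell just past the threshold. Fold and number of fingers had a Spearman rho of -0.0704, 0.0433, 0.358 and 0.104 across the members with a peak, a description over genes that share peaks. When gaps up to 5 kb were joined with all deposited peaks, 2 domains held most members. The domain from ZNF627 to ZNF490 spanned 1007 to 1066 kb and 24 or 25 members in each library, and that from ZNF558 spanned 1001 to 1209 kb and 11 to 13 members. At q ≤ 0.05 the longest domain measured 788, 782, 171 and 605 kb.

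Along the gene, coverage dipped at the start site and was highest in the 3′ part of the body. In the full lists, the mean covered share in the last bin before the TSS was 61.8%, 62.3%, 54.1% and 65.9%. In the bin 70% to 75% of the way along the body it was 93.0%, 93.8%, 91.5% and 90.6%. The dip was present in all 4 libraries and at both thresholds. At q ≤ 0.05 the means before the TSS were 51.2%, 50.7%, 22.3% and 51.4%, and those along the body were 85.4%, 87.5%, 39.6% and 82.4%.

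Gene by gene, this gradient came from some of the members only. Averaged over the 4 libraries with all deposited peaks, the longest coding exon exceeded the TSS ± 1 kb by at least 25 percentage points in 23 members, fell short of it by as much in 0, and in 25 both were within 25 points. An excess as large was found in 2222 of 19970 protein-coding genes and 53 of the 411 neighbours. It was also found in 52 of 201 ZNF genes farther along chromosome 19 and 93 of 267 of other chromosomes. A shortfall as large was found in 1001, 9, 9 and 13 genes of these sets. The member counts were 25, 4 and 19 at q ≤ 0.05. The last 2 kb of the body minus the TSS ± 1 kb had per-library medians over members of 0, 8.85, 0 and 0 points at q ≤ 0.05 and 0, 17.2, 11.9 and 8.11 points in the full lists. Averaging the 4 libraries within each member first gave a median of 22.7 points at q ≤ 0.05, larger than in any single library, and 12.9 points in the full lists, beside 0 over all protein-coding genes. The q ≤ 0.05 value was 13.9 points without No gRNA replicate 1 and 0 without All gRNA replicate 2. At q ≤ 0.05 the steepest gradients were those of ZNF554, ZNF57, ZNF823 and ZNF441, in which the longest coding exon was covered to 100% and the TSS ± 1 kb to 0% in each of the 4 libraries. ZNF333, at the far end of the stretch, had 100%, 100%, 0% and 100% over the exon and 0% in every library over the TSS ± 1 kb, and its exon rose to 100% in all 4 with all deposited peaks. In those full lists the TSS ± 1 kb was covered to a mean of 18.2% in ZNF554, 2.29% in ZNF57 and 20.2% in ZNF823. In ZNF441 it was covered to a mean of 74.1%, so the bare start site of ZNF441 rested on the threshold.

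The start sites were sorted into classes by both marks. In the full lists, H3K9me3 covered at least 50% of the TSS ± 1 kb in all 4 libraries in 23 members, in 1 to 3 libraries in 14 and in none in 11. H3K4me3 covered at least 50% of the same window in all 4 libraries in every member of the latter classes, 14 of 14 and 11 of 11, and in 7 of the 23 members with H3K9me3 throughout. Of these 23, H3K4me3 was at or above 50% in 1 to 3 libraries in 14 and in none in 2, ZNF491 and ZNF878. At q ≤ 0.05, where the H3K9me3 classes held 10, 18 and 20 members, no member had both marks over at least 50% of the window in every library. At that threshold H3K4me3 alone reached 50% in every library only in ZNF121 and ZNF562. The lack of joint members therefore cannot tell whether the marks avoid each other. The marks come from separate libraries of many cells, and a window covered by both can be mixed between cells, alleles or neighbouring nucleosomes, which peak lists cannot tell apart. CpG density, the number of CG pairs per 100 bases of the TSS ± 500 bases, had a median of 5.49 in the 23 and 6.19 in the 11, and of 5.89 in all members beside 6.69 in the neighbours.

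Promoter sequence differed between the runs as the marks did in part. The 250 bases before the RefSeq start (GRCh38.p14, 45 of 48 members matched) are shown for ZNF121 and ZNF266, whose start sites carried H3K4me3 in every library with all deposited peaks, and for ZNF878 and ZNF844, whose start sites were wholly under H3K9me3. They are read 5′ to 3′ on the strand of the gene, at chr19:9584505-9584754 (ZNF121, minus strand), chr19:9435574-9435823 (ZNF266, minus), chr19:12052962-12053211 (ZNF878, minus) and chr19:12064481-12064730 (ZNF844, plus). Capitals mark TGACGTCA, the palindrome known as the cyclic AMP response element, and CCAATCA, a form of the CCAAT box.
ZNF121: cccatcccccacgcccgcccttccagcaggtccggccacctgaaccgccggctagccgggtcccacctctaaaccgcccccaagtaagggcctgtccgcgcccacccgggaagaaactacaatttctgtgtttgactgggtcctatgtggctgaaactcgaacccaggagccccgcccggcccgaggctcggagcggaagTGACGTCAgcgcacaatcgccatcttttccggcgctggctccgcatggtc
ZNF266: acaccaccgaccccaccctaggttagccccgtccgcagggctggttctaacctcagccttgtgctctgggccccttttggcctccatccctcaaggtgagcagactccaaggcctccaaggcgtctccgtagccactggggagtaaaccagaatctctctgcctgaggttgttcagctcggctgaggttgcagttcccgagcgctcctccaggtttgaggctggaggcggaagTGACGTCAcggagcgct
ZNF878: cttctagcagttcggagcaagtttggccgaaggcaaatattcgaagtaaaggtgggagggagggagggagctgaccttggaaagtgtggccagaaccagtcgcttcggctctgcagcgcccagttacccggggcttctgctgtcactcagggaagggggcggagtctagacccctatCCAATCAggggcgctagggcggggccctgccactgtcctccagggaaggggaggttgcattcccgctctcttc
ZNF844: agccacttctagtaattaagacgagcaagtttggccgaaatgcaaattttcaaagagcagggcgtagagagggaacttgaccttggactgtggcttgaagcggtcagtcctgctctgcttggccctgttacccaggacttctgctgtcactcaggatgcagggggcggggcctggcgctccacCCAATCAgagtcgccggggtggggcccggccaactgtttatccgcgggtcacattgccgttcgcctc

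In RefSeq windows from 250 bases before to 50 after the start, searched on both strands, CCAATCA was present in 23 of 25 members of the fourth run, 4 of 5 of the first and 0 of 12 of the third. It was present in 6.95% of all 35116 promoters of the RefSeq table. TGACGTCA was present in 5 of 12 members of the third run (ZNF266, ZNF426, ZNF121, ZNF561 and ZNF562), in none of the 25 of the fourth, and in 1.85% of all promoters. The letters do not overlap each other, they were chosen after the promoters were read, and they are a description of duplicated sequence, not of binding. The start site was at least 50% under H3K9me3 in all 4 libraries of the full lists in 16 of 26 members of the fourth run, 6 of 14 of the third and 1 of 5 of the first. H3K4me3 reached 50% in all 4 in 14 of 26, 11 of 14 and 4 of 5. CCAATCA promoters therefore occurred both in the fourth run and in the first, where the start sites were mostly free of H3K9me3.

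Values at these 4 start sites were as follows. The TSS ± 1 kb of ZNF121 carried H3K4me3 over 73.7%, 95.1%, 96% and 100%, at either threshold. H3K9me3 covered 32.7%, 32.7%, 0% and 32.4% of it at q ≤ 0.05. In ZNF266 H3K4me3 covered 100%, 100%, 100% and 95.6% with all deposited peaks and 0%, 100%, 0% and 95.6% at q ≤ 0.05. Both start sites thus had H3K4me3 with H3K9me3 on part of the window, although ZNF266 had it in only 2 libraries at the stricter threshold. The TSS ± 1 kb of ZNF878 and ZNF844 was covered by H3K9me3 to 100% in every library at q ≤ 0.05. H3K4me3 covered 0% of both in every library at that threshold. In the full lists it covered 0%, 45.6%, 0% and 22.9% in ZNF878 and 50%, 56.4%, 0% and 100% in ZNF844, values that overlap between the groups.

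ZNF562 was the only member with H3K4me3 over 100% of the window in every library at q ≤ 0.05, and ZNF121 the only other one at or above 50% throughout. H3K4me3 at q ≤ 0.05 covered at least 50% in 16, 9, 5 and 34 members, a spread within groups as wide as that between them. These counts were, in the full lists, 39, 43, 32 and 44. In every library they gave 32 of 48 members (66.7%), beside 63.0% of the neighbours and 54.8% of all genes.

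Both marks at the members were then compared between cells with and without guides against ZEB1. A gene was called where both libraries of a group exceeded both of the other by 25 percentage points or more. An exact permutation test of 2 against 2 libraries, two-sided, has 6 labellings and a smallest p of 0.33, so no single value could pass 0.05. At q ≤ 0.05 the gene body was called higher in All gRNA in 2 members, ZNF558 and ZNF443, where 0.16% of all genes were called, and lower in 0 members, where 0.01% were. Over the TSS ± 10 kb, 4 members were called higher, ZNF558, ZNF491, ZNF799 and ZNF443 (background 0.225%), and 0 lower (background 0.00501%). None was called in the full lists in either direction for the gene body (backgrounds 0.401% higher and 0.24% lower) or for the TSS ± 10 kb (0.18% and 0.0351%). The shares of members called at q ≤ 0.05 exceed the background, but the body of 15147 genes had no H3K9me3 in any library at this threshold and could not be called. With No gRNA replicate 1 left out, 3 members were called higher for the gene body (0.19% of all genes) and 0 lower, and 4 higher (0.24%) and 1 lower (0.781%) for the TSS ± 10 kb. With No gRNA replicate 2 left out instead, 23 members were called higher for the gene body (1.83% of all genes) and 25 for the TSS ± 10 kb (1.78%). The genes called changed with the threshold. At q ≤ 0.01 the gene body was called higher in ZNF20 and ZNF625-ZNF20 (0.1% of all genes), and with peaks taken to equal covered length in ZNF177, ZNF20, ZNF625-ZNF20, ZNF625 and ZNF709 (0.305%), so neither ZNF558 nor ZNF443 was called in either setting.

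ZNF443 had the widest gap. Its gene body was covered to 91.8% and 100% with guides and to 3.43% and 20.2% without them at q ≤ 0.05, means of 95.9% ± 5.77 and 11.8% ± 11.9 (SD, n = 2 each), with an exact permutation p of 0.33. Both All gRNA values lay above both No gRNA values. The values in the full lists were 91.8%, 100%, 73% and 80.9%, so the order held and the gap was 11 points.

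The gene body of ZNF558 was covered to 92.4% and 85.2% with guides and to 0% and 40% without them at q ≤ 0.05, a difference of 68.8 points against a pooled SD of 20.3 (exact permutation p = 0.33, n = 2 each). It was covered, in the full lists, to 95.9% and 96.3% against 83.6% and 85.3%. The finger exons of ZNF558 and ZNF443 were covered to 100% in 3 of 4 libraries at q ≤ 0.05, No gRNA replicate 2 among them, so the groups did not separate there. Over the TSS ± 10 kb, ZNF799 had 85.7% and 87% against 43.6% and 47.1% at q ≤ 0.05, and ZNF491 had 94.7% and 94.6% against 33.3% and 58.6%. The full lists gave ZNF799 85.7% and 88.6% against 78.3% and 73.5%, again in the same order with a smaller gap. At its TSS ± 1 kb ZNF799 differed more, with 98.1% and 67.4% against 11.6% and 11.4% with all deposited peaks, a window outside the 3 comparisons and named after its values were seen.

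Over all members the difference of group means in the gene body had a median of 20.9 points at q ≤ 0.05, beside 0 over all genes. It was above 0 in 36 members and below 0 in 4. Over all genes it was above 0 in 2041, below 0 in 2706 and equal to 0 in 15223. Without No gRNA replicate 1 the member median was 2.99 points. With all deposited peaks it was 2.19 points, beside -0.527 over all genes. There, 29 members lay above 0 and 11 below, beside 5684 and 10973 of all genes.

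For H3K4me3 at the TSS ± 1 kb, 0 members were called higher at q ≤ 0.05 (background 0.135%) and 1 lower, ZNF426 (background 1.62%). Only 1 was called higher in the full lists, ZNF560 (background 1.78%), and 0 lower (background 2.21%). ZNF426 had 0% and 0% under the All gRNA label and 92.9% and 100% under the No gRNA label at q ≤ 0.05. Its values in the full lists were 100%, 100%, 92.9% and 100%, so the difference rested on the threshold. ZNF560, whose start site was under H3K9me3 to 100% in every library, had 44.9% and 56.7% H3K4me3 under the All gRNA label and 0% and 0% under the No gRNA label with all deposited peaks, and 0% in every library at q ≤ 0.05 (exact permutation p = 0.33 for either gene at the threshold where it was called). The shares of members called, 0% or 2.08%, lay near the background. With the library labelled No gRNA replicate 1 left out, 15 members (31.2%) were called lower, beside 20.3% of all genes. The median difference over members was 0 at both thresholds, as it was over all genes.

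The genes for the KRAB pathway itself mostly lacked the broad H3K9me3 of the zinc finger genes. The list held 14 genes, for TRIM28, SETDB1 and its partner ATF7IP, the HP1 proteins (CBX1, CBX3 and CBX5), the HUSH silencing complex (MPHOSPH8, TASOR and PPHLN1) with MORC2, the H3K9 methyltransferase SUV39H2, and subunits of the NuRD complex (CHD4, HDAC1 and HDAC2). Of these, 0 had at least 50% of the gene body under H3K9me3 in any library, even with all deposited peaks, where the highest value was 23%. Low cover of the gene body was also the rule over all protein-coding genes, by the medians given above. Other windows held it in places. MORC2 had 51.5%, 51.4%, 53.1% and 28.7% over the TSS ± 10 kb in the full lists, HDAC2 reached 51.7% there in No gRNA replicate 1, and the longest coding exon of ATF7IP reached 97.8% in that library. None of the 14 was called for H3K9me3 (backgrounds 0.00501% to 0.401%). The gene body of TRIM28 was covered to 4.73%, 0%, 11.9% and 6.65% with all deposited peaks. H3K4me3 covered at least 50% of the start site in all 4 libraries in 12 of 14 with all deposited peaks and in 0 of 14 at q ≤ 0.05. HDAC2, a histone deacetylase, was the 1 gene of the 14 called lower for H3K4me3 with all deposited peaks, where 2.21% of all genes were. It had 0% and 54.6% under the All gRNA label and 100% and 87.1% under the No gRNA label, and 0% in all 4 at q ≤ 0.05.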

How the data were processed

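Peak lists of 8 native ChIP-seq libraries, 1 per library, were analysed. For each peak the authors deposited the integer MACS2 score, a ratio (fold enrichment against the modelled background), and p-value and q-value on a −log10 scale. The study's methods name fastp, bowtie2, hg38, removal of duplicates and of an exclusion list, and MACS2. The submitters' processing notes name bcl2fastq 2.17, Trimmomatic 0.33, Bowtie 1.1.2 and MACS2 2.1.0, and which set made the files is not given in the sources used here. The study made input libraries, but whether peak calling used them is not stated. Depth is unknown, and its effect on the peaks that pass q ≤ 0.05 was not tested.

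Groups and replicate numbers came from the labels. Peaks on chromosomes 1 to 22 and X were kept at q ≤ 0.05 and overlapping ones joined, and each window's percent of bases under peaks was computed (Python 3.11.15, numpy 2.4.6, pandas 2.3.3, figures with matplotlib 3.10.9). Gene models were from GENCODE release 44, with 1 TSS per gene at the annotated 5′ end, and coding exons from the representative transcript of each member. Members' coding sequence was translated from hg38 with Biopython 1.88 to count C2H2 fingers and the KRAB motif. Calls used the 25 point gap over all 19970 genes, and single values the exact two-sided permutation test. Scripts were tested on simulated data.

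Named were all called members, those with the highest H3K9me3 body share, the steepest 3′ gradient, the highest or no H3K4me3, the lowest H3K9me3, and the genes beside the 15 Mb limit. Other genes named were chosen after their values were seen. The members and lists were chosen with earlier results of these data known. Alternatives covered the threshold (all deposited peaks, 0.01, 0.001), equal covered length, window sizes, a 50 point gap, the replicate block and each library left out. The share of all genes called was computed under each of these except the window sizes. The negative-control antibody was not analysed here.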

Additional observations from a re-analysis of the deposited data

How the results depend on the processing

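Most counts moved with the threshold or with a library left out. Members with a higher gene body share in All gRNA (2) numbered 0 with all deposited peaks (0.401% of all genes) and at q ≤ 0.001 (0%). They numbered 5 at equal covered length (0.305%, none of them ZNF558 or ZNF443) and 1 with a 50 point gap (0.0851%). With a library left out they numbered 2 to 23 (0.19% to 1.83% of all genes), 23 being without No gRNA replicate 2. For the TSS ± 10 kb (4 higher) the counts were 0 with all deposited peaks (0.18% of all genes) and at q ≤ 0.001 (0.00501%). They were 2 at q ≤ 0.01 (0.13%, ZNF491 and ZNF20), 2 with 25 kb to each side, and 1 with a 50 point gap (0.0701%). At equal covered length they were 5 (0.305%), none of them ZNF558, ZNF491, ZNF799 or ZNF443. With a library left out they were 4 to 25 (0.24% to 1.78% of all genes). Lower calls (0) ranged from 0 to 1, with 1 (0.781% of all genes) without No gRNA replicate 1. For H3K4me3, higher calls (0) were 1 with all deposited peaks (1.78% of all genes) and with 2 kb to each side, and 3 at equal covered length (1.68%). With a library left out they were 0 to 4 (0.15% to 6.52% of all genes), 4 being without No gRNA replicate 2. Lower calls (1) were 0 at equal covered length (0.3% of all genes), at q ≤ 0.001 (0.205%) and with no q filter (2.21%). They were 1 at q ≤ 0.01 (1.01%, ZNF121, not ZNF426). With a library left out they were 1 to 15 (1.81% to 20.3% of all genes), 15 being without No gRNA replicate 1. The share of all genes was not computed for the other window sizes. The median of the last 2 kb minus the promoter (22.7 points) was 12.9 with no q filter, 0 at equal covered length and at q of 0.01 or 0.001, and 0 to 25.3 with a library left out. The number of members with the longest coding exon covered throughout (18) was 45 with no q filter, 0 at q of 0.01 or 0.001, and 18 to 40 with a library left out. The All gRNA minus No gRNA difference turned sign for H3K4me3 at ZNF426 with all deposited peaks (3.55 points), for the gene body of ZNF443 at equal covered length (-1.71) and for the TSS ± 10 kb of ZNF799 at q ≤ 0.01 (-0.572). The cause was not tested. Of 633 recomputed values for 76 results, 515 were labelled the same, 115 moved and 3 turned in sign. For the main counts and medians alone, 77 were labelled the same and 34 moved. Counts were labelled the same within a set ratio of the main value, and medians and uncalled genes within their SD between libraries. For a called gene the label required only an unchanged sign, so such a difference could shrink widely and still be labelled the same.

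No label says that equal replicate numbers pair the samples. Deviations of same-numbered libraries correlated over all genes at -0.0307 for H3K9me3 and -0.333 for H3K4me3 at q ≤ 0.05 and at 0.0237 and 0.0148 with no q filter, and over members at -0.207 and -0.146, then 0.179 and 0.353. With the replicate block, 4 members were called higher for the gene body (0.22% of all genes) and 5 for the TSS ± 10 kb (0.315%). With the crossed pairing, chosen after seeing the data, H3K4me3 calls were 0 higher and 1 lower, and the share of all genes was not computed. Shares cannot be corrected for depth, which limits every threshold, and with 2 libraries per group and a smallest exact p of 0.33 no single difference could pass a test.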
